A study of Mus musculus with 12 samples.

Results

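The genes described here encode 27 proteins of the cytosolic small (40S) ribosomal subunit in the adult mouse heart. They were picked by symbol: Rpsa, 25 genes between Rps2 and Rps29, and Fau. The symbols were matched through GENCODE M21 (build GRCm38) to the Ensembl identifiers of the count files, which list 55401 genes. All 27 were found, and all 27 were among the 6596 genes with enough counts to be tested.

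Hearts of WT mice and of mice lacking Rpl3l (Rpl3l-/-, written KO below) were measured in 3 biological replicates per group by Nano-TRAP, which reads ribosome-bound mRNA on a nanopore sequencer. In the WT IP and KO IP groups the hearts were put in cycloheximide when excised, and ribosomes were captured with an anti-HA antibody before RNA was taken on RNeasy columns. In the WT Input and KO Input groups total RNA of the homogenate was taken with TRIzol and no pulldown. All 12 libraries were enriched for poly(A) RNA and made with the direct cDNA kit. The labels call the tissue adult heart and give neither an exact age nor a strain. They do not say which cells or which ribosomal protein carry the HA tag, and leave unsaid if a heart gave RNA to both fractions. Fraction, cycloheximide treatment and RNA purification changed together, so their effects on a value cannot be told apart.

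The 40S subunit binds the initiator tRNA, scans the messenger RNA for a start codon and checks each codon against its tRNA. Its proteins are made in equal numbers, and their mRNAs nearly all belong to the TOP class: they start with a C followed by a run of pyrimidines, which LARP1 binds when mTOR signalling is low, so that these mRNAs leave polysomes together. In the heart, mTOR and S6 kinase drive ribosome production during growth and pressure overload. Rpl3l is a large-subunit protein of heart and skeletal muscle that takes the place of Rpl3 there, and none of the genes described here belongs to that subunit.

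The start of the mRNA is the feature these genes are best known to share, so the longest C/T run near the RefSeq start is shown first for members at both ends of the order by mean IP to Input ratio given further on, with Rps6 as the target of S6 kinase and Rps28 for its short run. Each line gives up to 30 bases, 5′ to 3′ on the sense strand, from the RefSeq promoter window of GRCm38.p6, with the longest C/T run in capitals.
Rps12 (chr10:23787181-23787210, - strand): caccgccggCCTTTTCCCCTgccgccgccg
Rps15a (chr7:118116143-118116172, - strand): gcccggcccaCTCTCTTTCTgccatcttcc
Rps19 (chr7:24884623-24884652, + strand): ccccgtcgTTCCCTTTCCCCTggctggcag
Rps6 (chr4:86857349-86857378, - strand): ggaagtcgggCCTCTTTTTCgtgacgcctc
Fau (chr19:6057937-6057966, + strand): gcccccaCTTCTTCCTCTTTCTTgactcca
Rpsa (chr9:120127705-120127734, + strand): cggaagttctcCCTTTTTgcttagcctgct
Rps9 (chr7:3704025-3704054, + strand): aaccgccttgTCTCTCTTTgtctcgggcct
Rps28 (chr17:33824566-33824595, - strand): ctgtcccgaggaTTCCTgggtaccgcgtgc
Rps12, Rps15a and Rps19 are among the 4 members with the lowest mean IP to Input ratio of the 2 genotypes, and Fau, Rpsa and Rps9 among the 4 with the highest. Both ends of the order hold C/T runs, from 7 bases in Rpsa to 16 in Fau. Relative to the RefSeq start, those of Rpsa, Rps19, Rps28 and Rps15a begin at -50, -45, -21 and -15. They end before that start, outside the mRNA that begins there. The stretches shown for Rpsa, Rps19 and Rps15a nevertheless lie inside the GENCODE spans of their genes, which begin farther upstream. That of Rps28 lies outside its span. In the remaining genes shown the runs begin at -6 in Rps9, -3 in Fau, -1 in Rps6 and 8 in Rps12. A run counted here is therefore not the same as a TOP start. Rps28 had the shortest run, 5 bases.

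RefSeq windows were found for 23 of the 27 members, and none was found for Rps14, Rps20, Rps27a and Rps29. For a gene with several windows, the window with the longest run was kept, in members and in all other genes alike. The start was thus picked by the run itself, and the shares depend on how many windows a gene has. For Rps24 the stretch kept, chr14:24490711-24490740, lies inside the gene, which spans chr14:24487125-24496959. In the kept windows, a run of at least 8 C or T within 50 bases of the RefSeq start was in 17 of 23 members (73.9%). Such a run was in 37.9% of the 5200 tested genes with a window and 39.3% of all 27019 genes. The median longest run was 10 bases in members and 7 bases in tested genes. The ETS core CGGAAG, searched on both strands of the whole window, was in 17 of 23 members (73.9%), 33.3% of tested genes and 17.0% of all genes. The TATA box TATAAA, also on both strands, was in 2 of 23 members (8.70%), Rps2 and Rps28, and in 7.40% of tested genes. The C/T run was read on the sense strand only and may overlap an ETS core on the opposite strand. These are letters in a window; where transcription starts in the heart was not measured.

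Library totals ran from 443525 to 710868 counts in the 6 IP libraries and from 169359 to 443177 in the 6 Input libraries. The members nevertheless held more counts in Input on average, with a mean per library of 8304 in WT Input and 4773 in WT IP. In KO the means were 5413 in Input and 5024 in IP. The smallest count of any member in any library was 35. Rpl3l, the deleted gene, was at 212, 295 and 266 CPM (counts scaled to the library total and TMM factors) in WT Input and at 65.5, 25.8 and 49 CPM in KO Input. In the IP libraries it was at 258, 259 and 263 CPM in WT and 2.23, 2.5 and 7.95 CPM in KO, so the genotype labels and the counts matched. Globin mRNAs took 1.70% to 17.3% of the counts, most in WT IP library 2 and WT Input library 3. Cardiomyocyte markers summed to 57530 to 78620 CPM in every library, with Actc1 listed at 0 in all 12, as were Tcf21 of the fibroblast list and Cd3e of the leukocyte list. A count of 0 in these files is therefore not read here as absence of an mRNA.

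Before any comparison, the members differed widely in abundance. In plain CPM the mean level in WT Input ran from 182 for Rps27a to 1665 for Rps29, a range of 9.16-fold. Per kb of coding sequence, the mean level in WT Input ran from 388 CPM per kb for Rps27a to 9909 CPM per kb for Rps29, a range of 25.5-fold, with a median of 1598. Rps29 is a zinc-binding protein of the head, and Rps21, Rps23, Rps28 and Rps24 followed it at 4035, 3482, 3304 and 3096 CPM per kb. Rps6, Rps4x and Rpsa lay just above Rps27a, at 654, 789 and 816 CPM per kb. Rps29, Rps28 and Rps21 have the 3 shortest coding sequences, of 168, 207 and 249 bases, and a full-length cDNA read is counted once whatever its length, so that a level per kb is higher for short genes by construction. The order was similar in KO Input: across the 27 members the levels per kb in WT Input and KO Input had r = 0.992 and rho = 0.959, points that share the genes' lengths and mapping. In IP libraries Rps29 was again the highest per kb in both genotypes and Rps18 the lowest, at 203 CPM per kb in WT and 199.6 in KO. Over the members, the median coefficient of variation between replicates was 12.9% in WT Input, 18.3% in KO Input and 10.1% in KO IP. In WT IP it was 21.02%, and the spreads were not tested against each other.

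Together the 27 genes held a far smaller share of the counts in IP than in Input. Their share was 2.1, 1.95 and 2.05% of all counts in the WT Input libraries and 0.721, 0.596 and 0.974% in the WT IP libraries. In KO it was 2.37, 2.03 and 2.03% in Input and 0.868, 0.908 and 0.837% in IP. No IP library reached any Input library, and the exact 95% binomial intervals (Clopper-Pearson), which cover counting error only, were narrow, for example 0.577% to 0.614% in WT IP library 2. That library had the lowest share of members and the highest share of globin (17.3%), and WT IP library 3 had the highest member share of the IP libraries and 2.36% globin. With globin counts taken out of the total, the WT IP shares were 0.765, 0.72 and 0.998% and those of KO IP 0.933, 0.936 and 0.851%. Because these are bulk samples, fewer cells expressing a gene and less of its RNA per cell cannot be told apart in this or any later value.

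**Figure D1:**
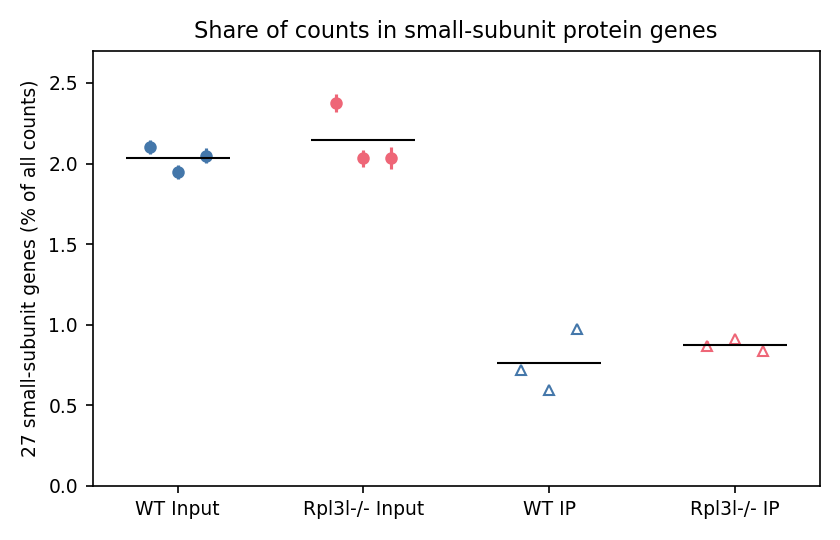
Percent of all counts that fell on the 27 small-subunit genes (y axis) in each library, by group (x axis); circles are Input, triangles IP, vertical bars exact 95% binomial intervals and horizontal lines group means. The 6 Input libraries lie between 1.95% and 2.37%, the 6 IP libraries between 0.596% and 0.974%.

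All 27 members were lower in IP than in Input in both genotypes. In WT, edgeR's quasi-likelihood test called 27 of 27 lower at an adjusted p under 0.05, where 8.67% of all genes tested were lower and 5.37% higher. In KO it called 27 of 27 lower, where 9.78% of all genes tested were lower and 6.64% higher. The median log2 IP to Input ratio of the members was -1.57 in WT and -1.60 in KO, beside 0.02 and 0.01 for all genes tested. For each member, each of the 3 IP libraries lay under each of the 3 Input libraries in WT and likewise in KO, as they did for 18.2% and 15.6% of all genes tested. A low ratio says that an mRNA made up less of the captured RNA than of the total RNA; the ratio is relative to the other mRNAs of the library and is no measure of ribosomes per molecule. Markers of cell types also moved with the fraction: of 11 cardiomyocyte markers tested, 4 fell in WT, and 3 fell and 2 rose in KO, and their sum was 60910 to 64990 CPM in WT IP and 69280 to 78620 in WT Input. Endothelial markers summed to 1739 to 2301 CPM in WT IP and 2320 to 3098 in WT Input, and adipocyte markers to 1160 to 1703 and 1634 to 2964. Fabp4 is in both lists and made up much of both sums, with means of 1230 CPM in WT IP and 1782 in WT Input. The 2 sums are therefore not independent, and Fabp4 is also counted in both lists among the genes that fell in KO. In KO the cardiomyocyte sum was 57530 to 64380 CPM in IP and 63410 to 75850 in Input. Of 10 endothelial markers 1 fell and 2 rose in WT, and 3 fell and 1 rose in KO; of 4 adipocyte markers tested 2 fell in WT and 3 in KO. Of 8 fibroblast markers tested 0 passed in WT and 2 fell in KO, and of 6 leukocyte markers 0 passed in WT and 1, Cd74, rose in KO. Fibroblast, mural and leukocyte sums overlapped between the fractions in WT. The part of cell type makeup in the members' ratios was not tested.

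By the mean of both genotypes the lowest ratios belonged to Rps12, Rps15a, Rps14 and Rps19. Rps18 came next with -2.125 beside -2.126 for Rps19, so the cut after 4 is not resolved. In WT alone Rps18 (-2.14) lay under Rps19 (-2.10) and Rps14 (-1.99). Rps12 (chr10:23785183-23787275) encodes eS12 of the beak, a projection of the 40S head. It was at 669.7, 611 and 678 CPM in the WT Input libraries and 89.1, 83.5 and 135 CPM in WT IP. In KO it was at 688, 604 and 429.7 CPM in Input and 109, 112 and 82.7 CPM in IP. The highest IP library of each genotype thus stayed far under the lowest Input library, and the log2 ratio was -2.67 ± 0.20 (SE) in WT (adjusted p = 2.77e-09) and -2.51 ± 0.21 in KO (adjusted p = 5.48e-09). In WT, IP held 15.7% of the Input level, and in KO 17.6%.

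Rps15a (chr7:118104372-118116188) encodes uS8, which binds the central domain of 18S rRNA in the body. Its level was 778 ± 48.6 CPM (SD, n = 3) in WT Input and 141 ± 51.6 CPM in WT IP, and its WT IP libraries read 109, 113 and 200.3 CPM, with library 3 above the other 2. In KO the values were 1067, 814 and 664 CPM in Input and 149, 169.9 and 153 CPM in IP. The groups did not overlap, and the log2 ratio was -2.47 ± 0.21 in WT and -2.43 ± 0.21 in KO (adjusted p = 6.13e-09 and 9.83e-09). Rps14 encodes uS11 of the platform; the loss of 1 copy of its human counterpart is known from the anaemia of 5q deletion. It read 1318, 1096 and 1541 CPM in WT Input and 328, 347 and 319.8 CPM in WT IP, the tightest WT IP group of any member with a coefficient of variation of 4.23%. In KO it read 1977, 1510 and 1409 CPM in Input and 364, 295 and 305 CPM in IP, and neither genotype had overlap. Its log2 ratio was -1.99 ± 0.17 in WT and -2.35 ± 0.17 in KO (adjusted p = 9.16e-09 and 1.29e-09). Rps19 (chr7:24884371-24889806), whose human counterpart is the gene most often mutated in Diamond-Blackfan anaemia, read 608, 519 and 751 CPM in WT Input and 144, 115 and 177 CPM in WT IP. In KO it read 757, 696 and 794 CPM in Input and 169.5, 179 and 156 CPM in IP, and the ratios of -2.10 ± 0.18 and -2.15 ± 0.18 differed by less than their errors.

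By the mean of both genotypes the highest ratios belonged to Rps27a, Rps9, Rpsa and Fau, although in KO alone Rps6 was the highest and Rps13 lay above Rps9, Fau and Rpsa. Among the 4, 2 encode fusion proteins. Rps27a (chr11:29545846-29548109) is translated as ubiquitin joined to eS31, and Fau (chr19:6057844-6059524) as the ubiquitin-like FUBI joined to eS30; both are cut after synthesis. Rps27a read 159.7, 212 and 173 CPM in WT Input and 106, 106 and 141 CPM in WT IP. In KO it read 200.2, 221 and 190.4 CPM in Input and 149, 116 and 111 CPM in IP, so the highest IP library came close to the lowest Input library in WT while staying under it. Its log2 ratio was -0.63 ± 0.19 in WT (adjusted p = 0.0293) and -0.72 ± 0.20 in KO (adjusted p = 0.0147). These 2 calls are not firm: leaving out WT IP library 1 or 2 or WT Input library 2 or 3 raised the WT adjusted p to 0.145, 0.117, 0.169 and 0.0573, and leaving out KO IP library 2 or 3 or KO Input library 2 raised the KO adjusted p to 0.0674, 0.0835 and 0.0804. With all libraries thinned to 169359 counts the Rps27a ratios were -0.57 and -0.48 and neither passed (adjusted p = 0.113 and 0.169).

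Fau stood on firmer counts, at 660.1, 599 and 681 CPM in WT Input and 306, 319 and 354 CPM in WT IP, and at 586, 644 and 560.2 CPM in KO Input and 350.1, 307 and 310 CPM in KO IP. All 4 groups were tight, and the log2 ratio was -0.99 ± 0.15 in WT and -0.89 ± 0.15 in KO (adjusted p = 3.34e-05 and 1.70e-04). Rps9 (chr7:3703993-3706897) encodes uS4 at the mRNA entry. Its level was 794 ± 37.9 CPM in WT Input and 429 ± 32.6 CPM in WT IP, and in KO IP its libraries read 613, 422 and 421 CPM, with library 1 the highest. Its ratios were -0.89 ± 0.16 in WT and -0.85 ± 0.16 in KO. Rpsa (chr9:120127689-120132369) encodes uS2, also known as the laminin receptor, on the solvent side of the platform. It read 719.7, 669.5 and 777 CPM in WT Input and 374, 434 and 451 CPM in WT IP, and 877, 895 and 897 CPM in KO Input and 526, 392 and 343 CPM in KO IP. Its log2 ratio was -0.78 ± 0.16 in WT and -1.09 ± 0.16 in KO (adjusted p = 0.00139 and 3.78e-05).

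**Figure D2:**
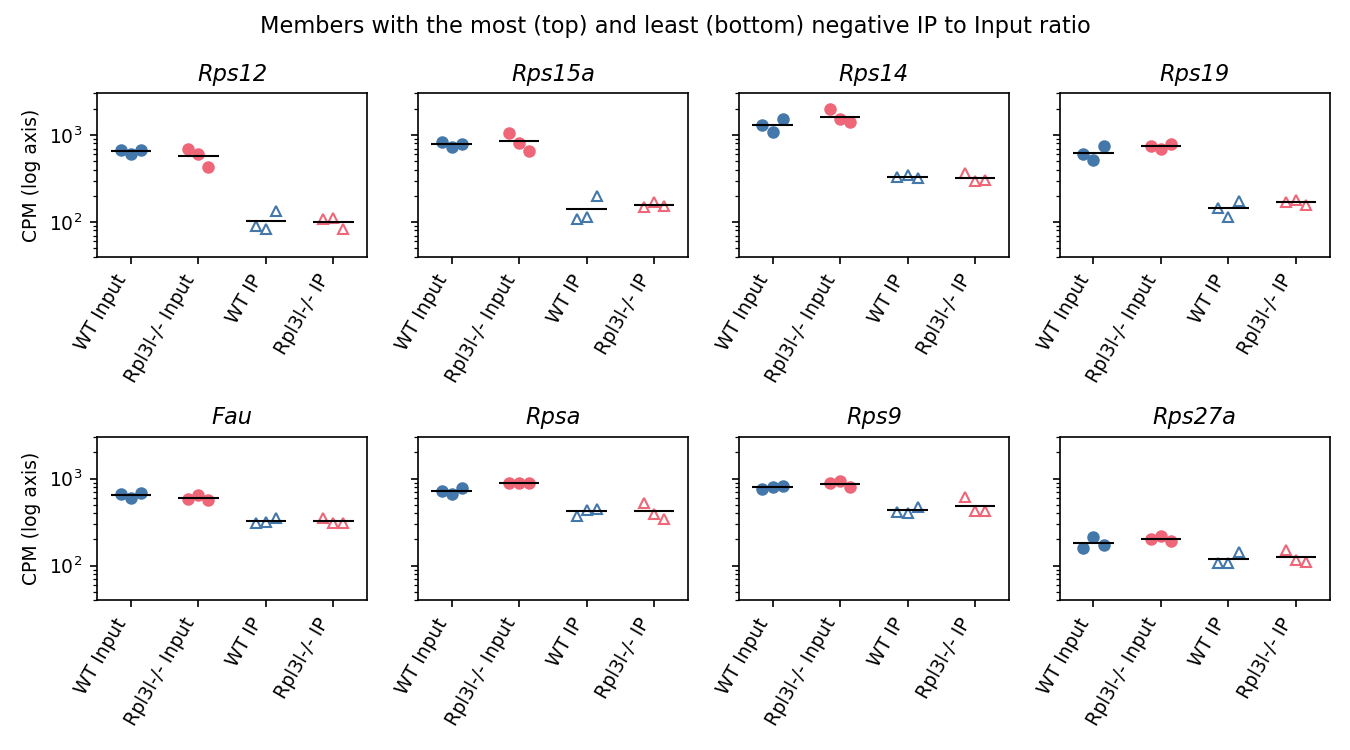
Level in CPM (log axis) of the 4 members with the lowest (Rps12, Rps15a, Rps14, Rps19) and the 4 with the highest (Fau, Rpsa, Rps9, Rps27a) mean log2 IP to Input ratio in each library; circles are Input, triangles IP, lines group means. IP lies under Input in all 8 panels, by the most in Rps12 and the least in Rps27a.

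The gap between these ends can be read within a library, where scaling plays no part. For every 100 Rps27a counts the WT Input libraries held 419, 288 and 391 Rps12 counts, and KO Input held 344, 273 and 226. The WT IP libraries held 84, 78.5 and 95.2, and the KO IP libraries 73.1, 96.8 and 74.3. Rps12 counts thus outnumbered Rps27a counts in all 6 Input libraries and in none of the 6 IP libraries. The pair was chosen for its difference in ratio, so these values describe it and test nothing.

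The members were also grouped by place or function in the subunit. The 9 grouped as head proteins had a median log2 ratio of -1.82 in WT and -1.66 in KO. None of these 9 was above -1.51 in either genotype by its own counts. With counts of near-identical copies added, described further on, Rps18 was at -1.39 in WT and -1.46 in KO and Rps29 at -1.42 in WT. Besides Rps12 and Rps19 the group holds Rps18 (-2.14 in WT and -2.11 in KO), Rps16, Rps20, Rps25, Rps10, Rps15 and Rps29. Rps3, Rps27a and Rps28 also encode proteins of the head but were put in other groups. Their ratios were -1.28, -0.63 and -1.57 in WT and -1.03, -0.72 and -1.61 in KO. The bound of -1.51 thus holds for the group as drawn, not for all head proteins. Rps16 encodes uS9, whose tail reaches the tRNA in the P site, and had -1.85 ± 0.18 in WT and -1.64 ± 0.19 in KO. Rps10 and Rps20 encode proteins that are ubiquitylated when ribosomes collide, and had -1.73 and -1.82 in WT and -1.60 and -1.56 in KO. Rps25, whose protein binds viral internal ribosome entry sites, had -1.77 and -1.66, and Rps15 had -1.72 and -1.78. Rps29, the most abundant member per kb, read 1883, 1339 and 1772 CPM in WT Input and 521, 540.4 and 692 CPM in WT IP. In KO it read 2071, 1495 and 1594 CPM in Input and 524, 536 and 585 CPM in IP, with ratios of -1.51 ± 0.17 and -1.65 ± 0.18 and no overlap.

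The 5 body and foot proteins had a median of -1.67 in WT and -1.65 in KO. Rps7 lay at that median, with -1.67 and -1.65. Rps24 had -1.94 in WT and -1.87 in KO, and the X-linked Rps4x had -1.38 and -1.07. Rps6 (chr4:86854660-86857412) encodes eS6, the protein that S6 kinase phosphorylates. It read 496, 459.7 and 510.5 CPM in WT Input and 179.7, 133 and 252 CPM in WT IP, a log2 ratio of -1.38 ± 0.21 (adjusted p = 4.13e-05). In KO it read 339, 501 and 272 CPM in Input and 261, 247 and 215 CPM in IP, a ratio of -0.64 ± 0.21 (adjusted p = 0.0423). The lowest KO Input library and the highest KO IP library of Rps6 nearly met. The KO call was lost when any KO IP library or KO Input library 1 or 2 was left out, and without KO Input library 2 the ratio was -0.35 (adjusted p = 0.372).

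The 4 proteins at mRNA entry and decoding had a median of -1.30 in WT and -0.98 in KO. Rps2 and Rps3 line the entry of the mRNA channel, and had -1.38 ± 0.17 and -1.28 ± 0.17 in WT and -1.04 ± 0.18 and -1.03 ± 0.17 in KO. Rps23, whose protein uS12 sits at the decoding centre, had -1.33 ± 0.18 in WT and -0.93 ± 0.18 in KO. The 7 proteins of the mRNA exit and platform had a median of -1.23 in WT and -1.09 in KO, and ran from Rps14 to Rpsa in WT and from Rps14 to Rps13 in KO. Rps26, which contacts the mRNA upstream of the start codon, had -1.21 and -0.97, and the platform proteins Rps13 and Rps3a1 had -1.19 and -1.23 in WT and -0.80 and -1.01 in KO. Rps21, a neighbour of Rpsa in the subunit, had -1.61 and -1.72. Rps28 at the exit read 708, 570.5 and 774 CPM in WT Input, 214, 226 and 251 CPM in WT IP, 856, 593 and 593 CPM in KO Input and 234, 212 and 227 CPM in KO IP. Its groups did not overlap, and its ratios of -1.57 ± 0.17 and -1.61 ± 0.18 matched those of Rps29, the other very short member, within their errors. The groups mix place and function and put each member in a single group. They were drawn from general knowledge of the subunit and were not tested against each other.

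WT and KO gave nearly the same order of members. Across the 27 members the log2 ratio in WT and that in KO had r = 0.91 and rho = 0.889; the 2 ratios share no library, but each shares gene length, mapping and the same 2 purification methods. The mean of the 2 ratios ran from -0.67 for Rps27a to -1.22 for Rps4x over 12 members, then from -1.58 for Rps29 to -2.59 for Rps12 over 15. The widest step, 0.36, was that between Rps4x and Rps29, followed by 0.28 between Rps14 and Rps15a and 0.22 between Rps24 and Rps18. All other neighbours in the order lay within 0.20 of each other, while the standard error of a single ratio was 0.15 to 0.23, so their order is not resolved. The 27 members also varied together from library to library. Each member's log2 CPM over the 12 libraries had r of 0.88 (Rps6) to 0.995 (Rps15a and Rps25) with the mean of the other members, a value that rests mostly on the split between Input and IP.

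**Figure D3:**
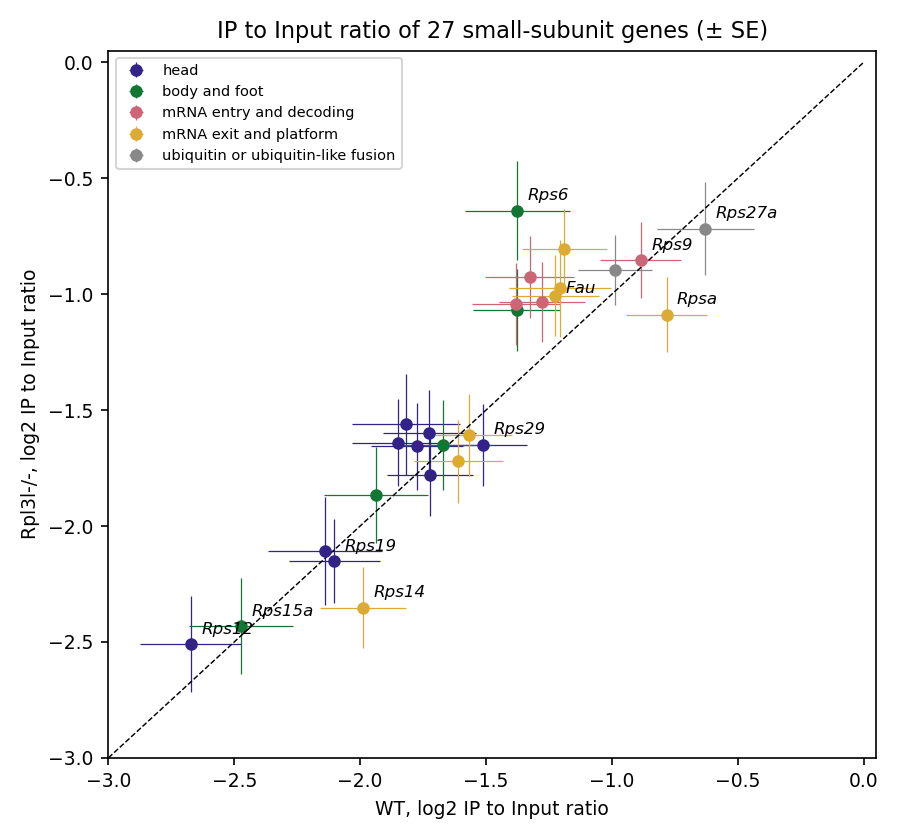
log2 IP to Input ratio of each member in WT (x axis) and Rpl3l-/- (y axis), coloured by group of place or function. Bars are standard errors from the edgeR fit, and the line of equal ratios is dashed. All 27 points lie under 0 on both axes, from Rps12 (-2.67 in WT and -2.51 in KO) up to Rps27a in WT (-0.63) and Rps6 in KO (-0.64).

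Small-subunit mRNAs are short, and in these libraries short coding genes in general had lower IP to Input ratios. Across 6483 coding genes tested, the mean log2 ratio and coding length had r = 0.301 and rho = 0.323. Among genes outside the ribosome with coding sequences over 300 and up to 450 bases, 403 in number, the median was -0.38 in WT and -0.37 in KO; the 11 members of that length had -1.82 and -1.66. For up to 300 bases, the medians were -0.55 and -0.71 in 197 other genes and -1.57 and -1.65 in 3 members. For 450 to 600 bases they were -0.19 and -0.24 in 504 other genes and -1.67 and -1.60 in 7 members, and for 600 to 900 bases -0.07 and -0.07 in 959 other genes and -1.33 and -1.04 in 6 members. At each length the members' median was the lower. Within the 27 members the mean ratio and coding length had r = 0.369 and rho = 0.392. The mean ratio and the longest C/T run had r = -0.301 and rho = -0.389 over 23 members. Runs that lie before the RefSeq start were included. These correlations describe the members and carry no test.

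**Figure D4:**
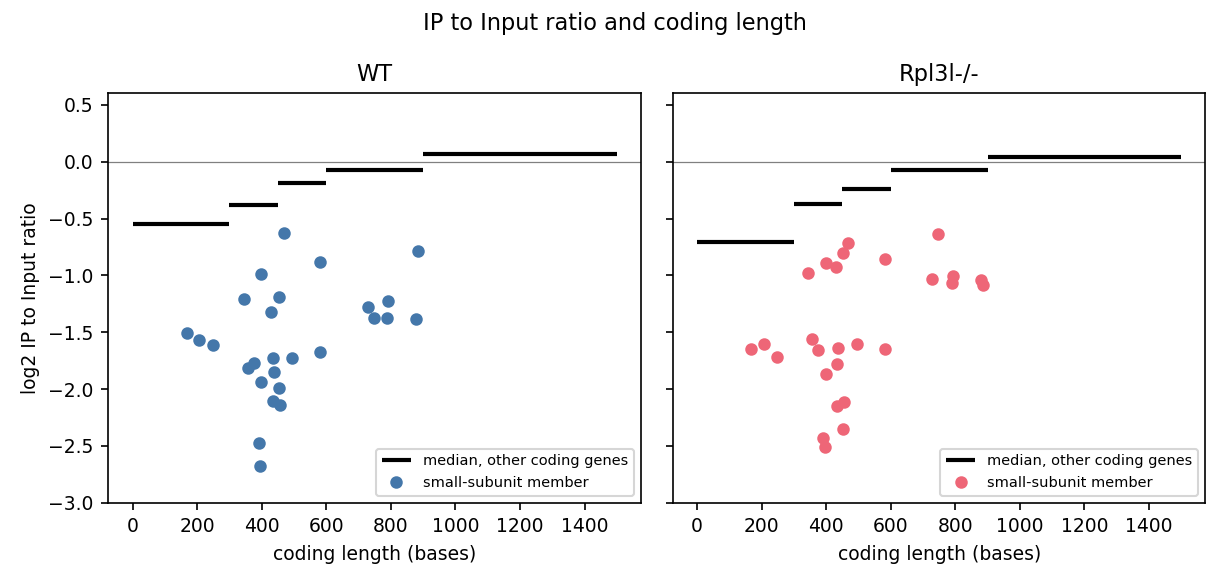
log2 IP to Input ratio (y axis) against coding length in bases (x axis) in WT (left) and Rpl3l-/- (right): points are the 27 members, and black bars are the medians of other coding genes in 5 length classes. Every member lies under the bar of its length class in both genotypes.

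Near-identical copies and overlapping genes can take reads from a member or lend them, and the sources used here do not give the counting rule. Sequence comparison found 270 loci with at least 90% identity over at least 80% of a member's coding sequence; 17 held any count, 2038 in all against 70539 counts of the members. Nearly all of those were at 4 loci. Gm11361, a copy of Rps18 at chr13:28257528-28258134, held 938 counts beside 1111 of Rps18 itself. For every 100 Rps18 counts the copy had 56, 50 and 50.7 in WT Input, 160.3, 197 and 135 in WT IP, 44.1, 47.5 and 86.2 in KO Input and 143, 126 and 194 in KO IP. Its share was thus higher in each IP library than in any Input library, and its own log2 ratio was -0.56 in WT and -0.72 in KO. With copies added to their members the Rps18 ratio went from -2.14 to -1.39 in WT and from -2.11 to -1.46 in KO, so the place of Rps18 in the order is uncertain. For Rps24, whose copy Gm2830 held 577 counts, the sum gave -1.75 in both genotypes, and for Rps29 with Gm14303 (314 counts) -1.42 and -1.57. All 27 members passed the test with copies added. Exons of another annotated gene cover part of the exons of 11 members, most in Rps10 (28.7%, by RPS10-NUDT3 and Gm15420) and Rps25 (24.8%, Trappc4 and Ccdc84 on the opposite strand), and 16 members have none.

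No member passed the test between genotypes in either fraction. In Input, 0 of 27 passed edgeR's test (0.182% of all genes tested did), and 0 had an unadjusted p under 0.05 (7.11% of all genes). The median log2 KO to WT ratio was -0.03, with 13 members above 0 and 14 below, and the smallest adjusted p was 0.724. In IP, 0 of 27 passed (0.091% of all genes tested) and 0 had an unadjusted p under 0.05 (5.17%); the median was 0.13, with 21 above 0 and 6 below. DESeq2 and limma-voom also called 0 of 27 in either fraction. The intervals are wide enough to hold modest changes: standard errors in Input ran from 0.15 to 0.21, and a p that misses the threshold does not show that levels were alike. The groups overlapped in nearly all members. In Input 1 of 27 had all KO libraries outside the WT range (12.3% of all genes tested did, in either direction), and in IP 0 of 27 did (10.9%).

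The member without overlap was Rpsa. It read 719.7, 669.5 and 777 CPM in WT Input and 877, 895 and 897 CPM in KO Input, a log2 ratio of 0.30 ± 0.16 (adjusted p = 0.728); its KO Input libraries had the smallest coefficient of variation of all members, 1.23%. In IP the KO and WT libraries of Rpsa overlapped, with a log2 ratio of -0.00 ± 0.16. Rps14 had the smallest p in Input, with 0.31 ± 0.16 (adjusted p = 0.724), and without KO Input library 1 its ratio was 0.14. In IP the smallest p values were those of Rps6, 0.35 ± 0.21 (adjusted p = 0.962), and of the platform protein Rps13, 0.25 ± 0.17 (adjusted p = 0.967). Rps13 read 289, 285 and 397 CPM in WT IP and 417, 379.7 and 361 CPM in KO IP, so that WT library 3 lay among the KO libraries.

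The Input median was -0.13 without KO Input library 1 and 0.10 without KO Input library 3. The positive median in IP turned on single WT IP libraries. Without library 2, which had the most globin, it was -0.01, without library 1 it was 0.02, and without library 3 it was 0.28. With WT IP library 2 and KO Input library 3 (the shallowest) both left out, the medians were -0.01 in IP and 0.11 in Input. Across the 27 members the KO to WT ratio in Input and that in IP had r = -0.379 and rho = -0.291, from comparisons without a shared library.

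**Figure D5:**
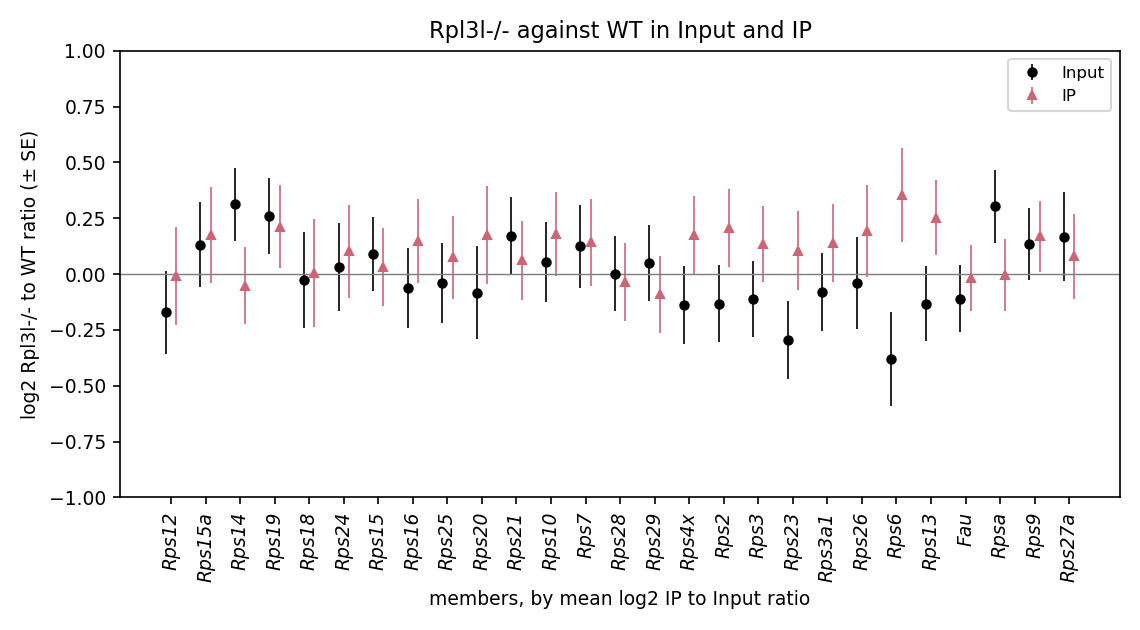
log2 Rpl3l-/- to WT ratio of each member (y axis, ± SE of the edgeR fit) in Input (circles) and IP (triangles), with members in the order of their mean log2 IP to Input ratio (x axis). All values lie between -0.38 and 0.36, and Rps6 has the lowest value in Input and the highest in IP.

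The interaction asks whether the IP to Input ratio itself differed between genotypes. It passed for 0 of 27 members (0.091% of all genes tested), and 1 member had an unadjusted p under 0.05 (7.02% of all genes). That member was Rps6, with a difference of 0.74 ± 0.30 on the log2 scale between its KO and WT ratios (adjusted p = 0.622). The ratio of Rps6 was the less negative in KO; without KO Input library 3 the difference was 0.57, without KO Input library 2 it was 1.03, and without WT IP library 2 it was 0.54. Rps13 and Rps23 followed with 0.39 ± 0.24 and 0.40 ± 0.25, each with an adjusted p of 0.784. Rps23 read 1728, 1226 and 1528 CPM in WT Input and 1420, 1248 and 974 CPM in KO Input, with overlap. In IP it read 507, 593 and 688 CPM in WT and 743, 589.6 and 594 CPM in KO, again with overlap. The median interaction over the members was 0.09, with 19 above 0 and 8 below; leaving out single libraries took it from -0.01 (without WT IP library 2 or KO Input library 3) to 0.33 (without WT IP library 3).

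Genes around the 40S subunit gave the members a frame. Of 48 large-subunit genes tested 41 fell in WT and 42 in KO, with medians of -1.42 and -1.27, and none rose. The members per 100 large-subunit counts were 67.7, 66.9 and 67.4 in WT Input and 55.3, 55.6 and 58 in WT IP, 70.5, 67 and 69.6 in KO Input and 61.7, 60 and 56.3 in KO IP, so that each IP library lay under each Input library. Rpl3, the large-subunit counterpart of Rpl3l, rose in KO by 0.95 in Input and 1.35 in IP (adjusted p = 0.0102 and 0.000172), whereas 0 of the 27 small-subunit genes passed there.

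Genes that build or serve the 40S subunit without being part of it were counted in the same way. Of 24 assembly factors tested 0 fell and 0 rose in either genotype (edgeR, smallest adjusted p 0.0721 in WT). Of 25 factors of the 43S initiation complex 4 fell and 1 rose in WT and 3 fell and 1 rose in KO; Eif1, which sets start codon choice, fell by 0.90 in WT. Of 18 other mRNAs of the TOP class 7 fell in WT, and 6 fell and 1 rose in KO, with medians of -0.36 and -0.13. Among these, Tpt1 and the mRNA-binding Ybx1 were close to the members, with -2.16 and -1.84 in WT and -2.04 and -1.96 in KO. Of 18 regulators of TOP mRNAs 1 fell and 2 rose in WT, and 2 fell and 4 rose in KO; the scaffold Eif4g1 rose by 1.11 and 1.10, and Eif4ebp1, the translation repressor that mTOR phosphorylates, fell as well, with -1.24 and -1.44. Of 12 ubiquitin and rescue factors of the 40S subunit 1 rose in WT, and 2 rose and 1 fell in KO; Map3k20, the kinase that senses collided ribosomes, rose by 1.23 and 1.00.

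Short mRNAs of mitochondrial proteins were set beside the members as another class of small, abundant transcripts. Of 46 short respiratory chain transcripts 21 fell and 1 rose in WT and 25 fell in KO, with medians of -0.45 and -0.50; Atp5e had -1.28 and -1.73. Of 29 proteins of the mitochondrial small ribosomal subunit 6 fell in WT and 5 in KO, with medians of -0.15 and -0.31. In none of these lists did KO against WT pass the test in either fraction, apart from Rpl3l and Rpl3 among the large-subunit genes. The lists were compared by counts and medians only, and a difference between lists was not tested.

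The genes whose profile over the 12 libraries was most like the members' mean log2 CPM were mostly ribosomal as well. Rpl26 had r = 0.995, Rpl23a 0.994, Rpl13a and Rpl34 0.992, Arl5c 0.991, Rsrp1 0.99 and Rpl32 0.989. The 5 Rpl genes lie in the large subunit. Arl5c and Rsrp1 do not belong to the ribosome, and their log2 IP to Input ratios were -4.56 and -2.60 in WT and -4.55 and -2.10 in KO, and Arl5c had a mean of only 42.9 CPM in WT Input. The likeness rests mostly on the split between Input and IP, which these genes share with the members.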

How the data were processed

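The authors deposited 1 whole-number count per gene for each of 12 libraries; the submitters' processing notes name minimap2 2.14, DESeq2 1.34.0 and GRCm38 without a role, and the counting tool, its rule for ambiguous reads and its use of strand are not given in the sources used here. Counts were read as deposited and 55141 of 55401 identifiers matched GENCODE M21. The members and lists were chosen with earlier results of these data known, as were the named genes: the 4 members at each end of the mean IP to Input ratio, the 2 with the smallest p in each genotype contrast and the interaction, 6 members named for their roles, up to 2 called genes per context list and the 8 genes with the most similar profile; some items under this rule are not reported here. edgeR 4.0.16 in R 4.3.3 fitted all 12 libraries with a mean per group, TMM factors, filterByExpr (minimum count 10, minimum total 15) and the quasi-likelihood F test, and p-values were adjusted by Benjamini-Hochberg over 6596 genes with a threshold of 0.05. The biological coefficient of variation was 18.2%. CPM used all counts and TMM factors. Alternatives used DESeq2 1.42.0 and limma-voom 3.58.1, other scalings, filters, lengths, copies and left-out libraries. Scripts were tested on simulated data. P-values measure the spread between 3 libraries per group. Replicate numbers were not used to pair the libraries. Over 18 same-numbered pairs, which include WT libraries set against KO libraries, the deviations had correlations of -0.115 to 0.042. Between Input and IP of the same genotype, where a heart could be shared, the same-numbered pairs ran from -0.041 to -0.004. Differently numbered pairs of any groups reached 0.123 at most, so this check could not settle whether libraries are paired. Library totals of 169359 to 710868 mean that 3 counts stand for 4.22 to 17.7 CPM.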

Additional observations from a re-analysis of the deposited data

How the results depend on the processing

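The members' medians kept their direction in IP against Input under all alternatives run, and 26 or 27 of 27 were called lower in WT and 25 to 27 in KO. Removing a trend of the log2 ratio with transcript length moved the WT median from -1.57 to -1.11 and the KO median from -1.60 to -0.98; removing a trend with coding length, an alternative chosen after seeing the data, gave -1.27 and -1.01. The cause was not tested. Leaving out each library in turn gave medians of -1.67 to -1.48 in WT and -1.66 to -1.43 in KO. With the transcript length trend removed, Rps27a was at -0.13 in WT and -0.15 in KO and Rps6 at -0.12 in KO, values without a test. Among the tested alternatives, only Rps27a and Rps6 lost a call. Rps27a lost it in WT with DESeq2 (adjusted p = 0.0718), library totals (0.0993), no count filter (0.11) and thinned libraries, and in KO with library totals (0.0759), no count filter (0.0883) and thinned libraries. Rps6 lost it in KO with DESeq2 (0.0556), limma-voom (0.0579), library totals (0.156), no count filter (0.0806), the compared libraries alone (0.0511) and thinned libraries (0.127). With a replicate block 27 members were called in WT and 26 in KO, where Rps6 had an adjusted p of 0.0569; the medians were -1.56 and -1.60, and no other member's call changed. Whether libraries with the same number share a heart is not known, and the correlations of their deviations could not settle it. Between genotypes and in the interaction 0 of 27 members were called under each alternative with a test, and the medians ran from -0.01 to 0.28 in IP without single libraries. Leaving out WT IP library 2 and KO Input library 3 together, also chosen after seeing the data, cost Rps27a its call in WT (adjusted p = 0.0994) and gave an interaction median of -0.13. Depth limits the rest, with as few as 35 counts of a member in an Input library and 37 in an IP library. Counts of Rps18 and its near-identical copy may be split between them. The fraction cannot be separated from purification and cycloheximide.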
